A study of Mus musculus with 7 samples.

Results

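The genes described here are the secreted Wnt ligands, their Frizzled receptors and secreted proteins classed as Wnt antagonists, measured by RNA sequencing in 7 mouse brain tumours. Every gene in the count tables was taken whose symbol is Wnt or Fzd followed by a digit, Sfrp1 to Sfrp5, Dkk1 to Dkk4 or Wif1. This gave 38 genes of 37620: 19 Wnt ligands, 10 Frizzled receptors and 9 antagonists. No gene in the tables carries the symbol Sfrp3, because that gene is listed as Frzb. Frzb had reads in every tumour but falls outside this symbol rule. It was followed with the other secreted antagonists among the further pathway genes, so the antagonist counts and sums below leave it out. Both groups were tumours grown in the brains of nude mice, which lack T cells, from cultured glioblastoma stem-like cells that derive from neural stem cells, with the subventricular zone given as the source tissue. The 4 GSC1 tumours carry the mutation label lgT/Ras, and the 3 GSC2 tumours carry the label shp53, Nf1-/-, CDK4. Each line stands for 1 combination of alleles, so a difference between the groups is one between 2 lines, and the allele, the culture and any clonal origin cannot be told apart. The labels name no promoter, no host age and no tumour-free brain sample. The design calls the tumours independent but names no animals, so p-values measure the spread between these 7 samples.

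Wnt proteins are lipid-modified secreted signals. They bind a Frizzled receptor together with Lrp5 or Lrp6 and keep beta-catenin from being degraded, so that it can act with TCF and LEF factors on target genes; other Wnts signal through planar cell polarity and calcium branches. Secreted Frizzled-related proteins (Sfrp) and Wif1 bind the Wnt itself, whereas Dkk1, Dkk2 and Dkk4 block Lrp5 and Lrp6. In brain, Wnt7a and Wnt7b made by neural progenitors and glia act on endothelial cells to build vessels and the blood-brain barrier, and in adult neurogenic zones Wnt signals act on neural stem cells.

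Between 18643155 and 32643408 reads were counted on genes per tumour. Levels are in CPM, the count scaled to a common library size, with library sizes corrected by the trimmed mean of M-values (TMM), and per-kilobase values use the longest annotated transcript. The tumours differed in the levels of neuronal and mature oligodendrocyte markers. With no tumour-free brain sample, RNA of normal brain and RNA of tumour cells expressing such markers cannot be told apart. A brain score, the mean of the log2 CPM of 15 neuronal and 12 mature oligodendrocyte markers with each list weighted equally, took the values 5.998, 4.78, 8.64 and 7.91 across the GSC1 tumours and 6.28, 7.75 and 7.62 across the GSC2 tumours, each line being listed in the order of its replicate numbers here and below. In GSC1 replicates 3 and 4 the summed CPM of 7 hindbrain and spinal cord markers was 561 and 200.3, against 2.96 to 8.24 in the other tumours, where 2 or 3 of the markers were at 0. The summed CPM of 7 forebrain markers was 29.4 and 33.7 in those replicates and 239 to 349 elsewhere, and that of 12 mitosis markers was 304 and 459 against 834 to 1845. None of 8 oligodendrocyte progenitor and 10 astrocyte markers was at 0 in any tumour. Since normal brain also holds such RNA, this does not check the labelled origin of the tumour cells. Long transcripts relative to short ones ran from -0.61 to 0.58 against the average library on the log2 scale, the lowest in GSC2 replicate 3 and the highest in GSC2 replicate 2. The value was also negative in GSC1 replicates 3 and 4, at -0.36 and -0.30, and positive in the remaining tumours. The part of this length trend in the levels below was not tested. Each result below therefore comes with the tumours on which it rests.

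Wnt7b dominated the ligands and Fzd1 the receptors by level per kilobase. Wnt7b averaged 49.7 CPM per kilobase over the 7 tumours, and the next ligands, Wnt5a, Wnt7a and Wnt5b, averaged 5.61, 4.71 and 4.47. Fzd1 averaged 41.4, ahead of Fzd7 at 10.8, Fzd2 at 7.55 and Fzd6 at 5.56. Dkk3, a member of the Dickkopf family for which a role as a Wnt inhibitor is less settled, led the antagonists at 28.9, followed by Wif1 at 7.19, Sfrp1 at 4.69 and Dkk2 at 4.34. The place of Wif1 rests on GSC1 replicates 3 and 4; in each of the other 5 tumours it was below both Sfrp1 and Dkk2. Of the 38 genes, 30 passed the filter on low counts and were tested, and 16 of these averaged at least 10 CPM. The 8 that were not tested were Wnt1, Wnt3a, Wnt8a, Wnt8b, Wnt10b, Wnt16, Dkk1 and Dkk4. Wnt8a and Dkk4 had no read in any tumour, which with a floor of 3 counts allows up to 0.153 CPM in the shallowest library, for counting error only. The highest value among the untested genes was 1.80 CPM, for Wnt8b in GSC2 replicate 3.

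**Figure D1:**
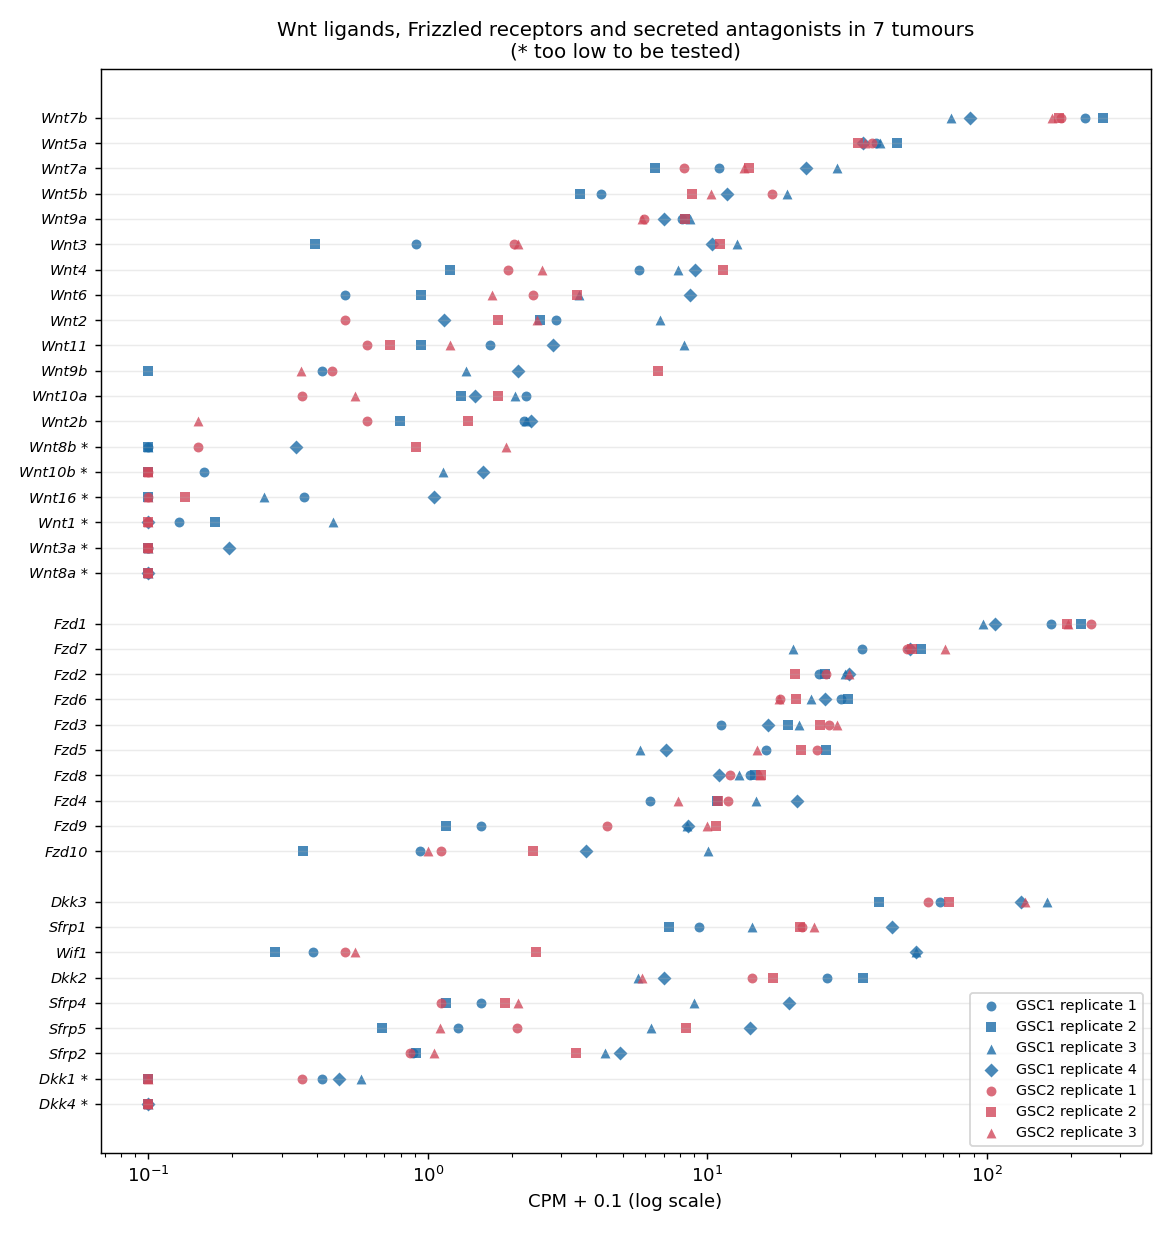
Level of each of the 38 genes in CPM, with a small constant added, on a log axis, by role, with 1 point per tumour. An asterisk marks the genes too low to be tested. Blue points are the 4 GSC1 tumours and red points the 3 GSC2 tumours. Wnt7b, Fzd1 and Dkk3 have high levels in all 7 tumours, and the Wif1 points of GSC1 replicates 3 and 4 lie near 56 CPM, apart from the others at 2.35 or less.

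Among the ligands, Wnt7b, one of the pair of vessel-directed Wnts, was at 224, 261, 74.2 and 87.5 CPM in GSC1 and at 184, 182 and 171 CPM in GSC2. GSC1 replicates 3 and 4 were the lowest of the 7 tumours and GSC1 replicates 1 and 2 the highest, so the GSC2 values lay inside the range of GSC1. Its share of the ligands' summed CPM per kilobase was 34.8% and 44.0% in GSC1 replicates 3 and 4 and 66.4 to 83.1% in the other 5. Wnt7a, the other member of that pair, was at 10.9, 6.40, 29.1 and 22.5 CPM in GSC1 and at 8.19, 14.1 and 13.4 CPM in GSC2. For Wnt7a, GSC1 replicates 3 and 4 were the highest tumours and GSC1 replicate 2 the lowest. In bulk tissue, fewer cells of a type and less RNA per cell cannot be told apart.

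Wnt5a, a ligand best known for signalling outside the beta-catenin branch, varied least among the ligands with a mean over 10 CPM. It was at 40.2, 47.8, 41.4 and 35.9 CPM in GSC1 and at 38.8, 34.5 and 36.5 CPM in GSC2, a ratio of 1.38 between the highest and the lowest tumour. Wnt5b, its close relative, was at 4.06, 3.42, 19.2 and 11.7 CPM in GSC1 and at 16.9, 8.70 and 10.2 CPM in GSC2. Here the low tumours were GSC1 replicates 1 and 2, and the lines overlapped. Wnt11, also known for planar cell polarity signalling, was at 1.56, 0.845, 8.19 and 2.71 CPM in GSC1 and at 0.509, 0.631 and 1.10 CPM in GSC2. Only GSC1 replicate 2 fell within the GSC2 range. Wnt3, a canonical ligand used by neurons and neurogenic astrocytes, was at 0.811, 0.294, 12.7 and 10.3 CPM in GSC1 and at 1.93, 11.01 and 2.00 CPM in GSC2. Its 3 high tumours were GSC1 replicates 3 and 4 and GSC2 replicate 2, which also had the 3 highest brain scores.

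The other tested ligands were low. Wnt9a lay between 5.76 and 8.59 CPM in all 7 tumours, the narrowest spread among them. Wnt4, Wnt6, Wnt2, Wnt2b and Wnt10a reached at most 11.3, 8.62, 6.68, 2.24 and 2.14 CPM. Wnt9b, which adjoins Wnt3 on chromosome 11 in the RefSeq gene order, had no read in GSC1 replicate 2 and reached 6.56 CPM in GSC2 replicate 2; elsewhere it was at 0.251 to 2.00 CPM. Thus of these neighbours Wnt3 was high in 3 tumours and Wnt9b most of all in 1 of those 3. The set holds 3 more adjacent pairs: Wnt6 with Wnt10a on chromosome 1, Wnt3a with Wnt9a on chromosome 11, and Wnt10b with Wnt1 on chromosome 15. Wnt10b reached 1.03 CPM in GSC1 replicate 3 and 1.48 CPM in replicate 4, with 0.058 CPM in replicate 1 and without a read in the other 4 tumours.

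Fzd1, a receptor that couples to the beta-catenin branch, was at 169, 218, 97.3 and 107 CPM in GSC1 and at 237, 195 and 195 CPM in GSC2. GSC1 replicates 3 and 4 were again the lowest tumours, as they were for Wnt7b, and GSC1 replicate 2 lay above 2 of the 3 GSC2 tumours. Fzd1 made up 39.7 to 62.1% of the receptors' summed CPM per kilobase. Fzd5 was at 16.2, 26.6, 5.64 and 7.05 CPM in GSC1 and at 24.7, 21.6 and 14.9 CPM in GSC2, with the same 2 tumours lowest. Fzd7, a broadly expressed receptor, was at 35.7, 58.0, 20.2 and 53.0 CPM in GSC1 and at 51.6, 54.2 and 70.7 CPM in GSC2, with GSC1 replicate 3 lowest. Fzd2, which also mediates Wnt5a signals, lay between 20.6 and 32.1 CPM in every tumour: 25.01, 26.3, 31.0 and 32.1 CPM in GSC1 and 26.5, 20.6 and 32.1 CPM in GSC2.

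In 2 of the 30 tested genes, the receptors Fzd3 and Fzd6, every tumour of one line was above every tumour of the other; over all 16068 tested genes this share was 5.58%. Fzd3, a planar cell polarity receptor needed for axon tract growth, was at 11.1, 19.3, 21.3 and 16.4 CPM in GSC1 (17.0 ± 4.42, SD, n = 4) and at 27.2, 25.4 and 29.2 CPM in GSC2 (27.2 ± 1.91, SD, n = 3). All 3 GSC2 tumours were above all 4 GSC1 tumours. Fzd6, a receptor known for planar cell polarity in hair and skin, ran the other way, at 29.96, 31.8, 23.4 and 26.4 CPM in GSC1 (27.9 ± 3.75, SD, n = 4) and at 18.1, 20.6 and 18.0 CPM in GSC2 (18.9 ± 1.497, SD, n = 3). For both genes the gap between the closest tumours was small: 21.3 against 25.4 CPM for Fzd3 and 23.4 against 20.6 CPM for Fzd6. Fzd8 and Fzd4, the latter the receptor for norrin and Wnt7 signals in vessels, lay between 10.9 and 15.4 CPM and between 6.14 and 20.9 CPM.

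Fzd9 and Fzd10 were the lowest receptors by mean CPM and varied the most. Fzd9 was at 1.45, 1.07, 8.35 and 8.47 CPM in GSC1 and at 4.27, 10.7 and 9.92 CPM in GSC2, so that GSC1 replicates 1 and 2 stood below the other 5. Fzd10 was at 0.840, 0.257, 9.98 and 3.57 CPM in GSC1 and at 1.02, 2.28 and 0.902 CPM in GSC2, and GSC1 replicates 3 and 4 were highest. The highest Fzd10 value was 38.8 times the lowest.

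Among the antagonists, Wif1, which binds Wnts outside the cell, had the widest spread of the tested genes with a read in every tumour, the highest value being 305 times the lowest. It was at 0.290, 0.184, 56.0 and 55.7 CPM in GSC1 and at 0.407, 2.35 and 0.451 CPM in GSC2. GSC1 replicates 3 and 4 thus held nearly all Wif1 reads, and Wif1 made up 28.5% and 26.7% of the antagonists' summed CPM per kilobase there against at most 2.64% in the other tumours. Besides the hindbrain markers, the summed CPM of 9 meningeal and fibroblast markers was high in these replicates, at 2585 and 1694 against 504 to 726 elsewhere, and no marker of that list was at 0. The part of these tissues in the Wif1 reads was not tested.

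Dkk3 was at 68.2, 41.0, 164 and 133 CPM in GSC1 and at 61.9, 73.5 and 137 CPM in GSC2, with GSC1 replicates 3 and 4 and GSC2 replicate 3 high. Dkk2, a context-dependent ligand of Lrp6, was at 26.7, 36.2, 5.56 and 6.90 CPM in GSC1 and at 14.3, 17.1 and 5.76 CPM in GSC2; the same 3 tumours were its lowest. Sfrp1, which binds Wnts and is expressed by neural progenitors, was at 9.27, 7.20, 14.4 and 45.7 CPM in GSC1 and at 21.7, 21.3 and 24.0 CPM in GSC2. GSC1 replicate 4 was highest and the GSC2 tumours were close together above the other 3 GSC1 tumours. In GSC1 replicate 4 and the GSC2 tumours the summed CPM of 8 choroid plexus markers was also high, at 2195 to 9108. It was 81.9 to 139 in GSC1 replicates 1 to 3, where Folr1 and Slc4a5 were at 0 in replicate 2. Ttr, at 2026 to 8165 CPM, made up most of each high sum. Aqp1 did not follow this pattern and was highest in GSC1 replicate 2, at 136 CPM. The part of these markers' tissue in the Sfrp1 values was not tested. Sfrp2, Sfrp4 and Sfrp5 reached at most 4.76, 19.6 and 14.1 CPM, in each case in GSC1 replicate 4.

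**Figure D2:**
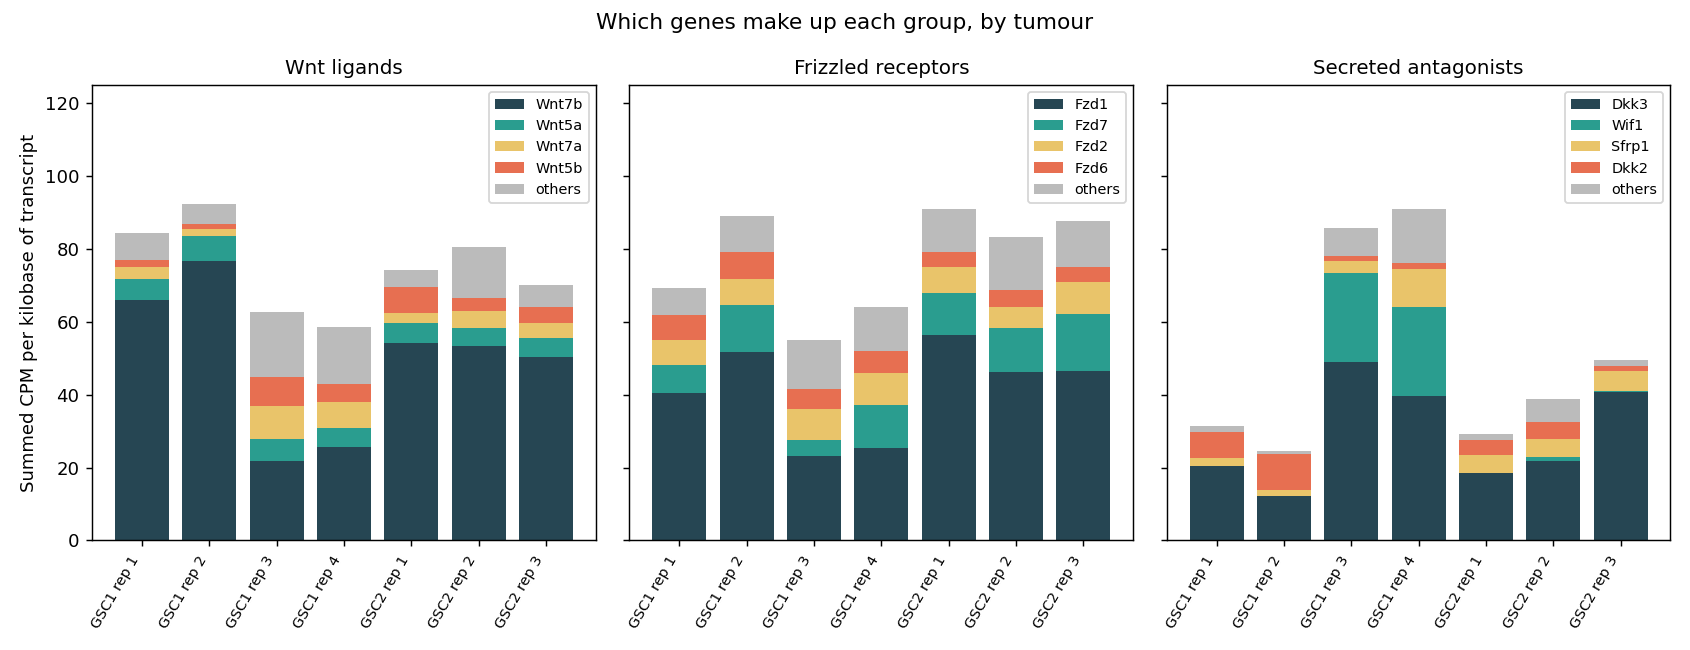
Summed CPM per kilobase of the ligands, receptors and antagonists in each tumour, with the leading genes as stacked segments from 0. The antagonist bars of GSC1 replicates 3 and 4 reach 85.8 and 91.0, above the 24.7 to 49.5 of the other 5 tumours, while their ligand bars are the lowest 2.

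The summed level of the ligands per kilobase was 84.4, 92.2, 62.8 and 58.4 CPM in GSC1 and 74.1, 80.5 and 70.0 CPM in GSC2. The summed level of the antagonists was 31.3, 24.7, 85.8 and 91.0 CPM in GSC1 and 29.2, 38.9 and 49.5 CPM in GSC2. The antagonist sum was above the ligand sum in GSC1 replicates 3 and 4, with ratios of 1.37 and 1.56, and below it in the other tumours, with ratios of 0.268 to 0.706. Without Dkk3 the ratios were below 1 in every tumour, at 0.589 and 0.879 in GSC1 replicates 3 and 4. Elsewhere they were 0.125 to 0.211. Dkk3 made up 56.9% and 43.6% of the antagonist sum in those 2 replicates and 49.5 to 82.3% of it in the other tumours. Wif1 made up 28.5% and 26.7% of the sum in those replicates, and the ratios without Wif1 were not computed. The receptors' summed level was 69.4, 89.1, 55.0 and 64.1 CPM in GSC1 and 90.9, 83.4 and 87.8 CPM in GSC2, lowest in the same 2 tumours. GSC1 replicates 3 and 4 were the highest 2 of the 7 tumours for 9 of the 30 tested genes, beside 20.3% of all tested genes, and the lowest 2 for 3 of the 30, beside 20.8%. The 9 were Fzd4, Fzd10, Wnt2b, Wnt6, Wnt7a, Wnt11, Sfrp2, Sfrp4 and Wif1, and the 3 were Fzd1, Fzd5 and Wnt7b.

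The upstream sequences of Wnt7a, Wnt11 and Wif1 are shown because these 3 genes were among those highest in GSC1 replicates 3 and 4 and differ in the one motif searched. Each is the 250 bases before the RefSeq start on the strand of the gene, 5′ to 3′, from RefSeq on GRCm38.p6. Wnt7a lies at chr6:91411354-91411603 on the minus strand, Wnt11 at chr7:98834862-98835111 on the plus strand and Wif1 at chr10:121033754-121034003 on the plus strand. Capitals mark a match to the core motif of the TCF and LEF factors, CTTTGAA or CTTTGAT on either strand.
Wnt7a: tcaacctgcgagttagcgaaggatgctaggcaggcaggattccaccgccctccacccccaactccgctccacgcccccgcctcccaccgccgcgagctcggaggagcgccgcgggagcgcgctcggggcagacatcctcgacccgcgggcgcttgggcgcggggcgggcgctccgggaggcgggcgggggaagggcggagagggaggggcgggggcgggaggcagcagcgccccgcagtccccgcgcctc
Wnt11: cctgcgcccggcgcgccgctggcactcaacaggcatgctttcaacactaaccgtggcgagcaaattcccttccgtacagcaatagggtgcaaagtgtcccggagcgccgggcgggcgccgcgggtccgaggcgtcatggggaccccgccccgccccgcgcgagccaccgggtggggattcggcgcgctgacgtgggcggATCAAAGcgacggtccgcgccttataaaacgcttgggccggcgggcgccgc
Wif1: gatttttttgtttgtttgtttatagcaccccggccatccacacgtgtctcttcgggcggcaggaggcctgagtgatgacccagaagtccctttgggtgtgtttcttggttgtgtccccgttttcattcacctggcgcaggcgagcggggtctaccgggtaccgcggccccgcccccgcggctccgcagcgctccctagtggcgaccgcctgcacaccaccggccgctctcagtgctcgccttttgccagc
The Wnt11 window holds 1 match, on the opposite strand and starting 51 bases before the start, and the Wnt7a and Wif1 windows hold none. Wnt11 has another RefSeq start, whose window holds none. Of the 38 genes, 26 matched the promoter table, with 29 windows; 3 windows held the motif, those of Dkk1, Wnt5b and the first Wnt11 start, a share of 10.3% beside 7.48% of all 32851 windows. The windows of the genes had a median of 68% G and C and 22 CpG sites, beside 52.4% and 6 over all windows. A match is a description of the letters and not a measured binding site.

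GSC2 was compared with GSC1 by edgeR's quasi-likelihood test across all 16068 genes. None of the 30 genes passed an adjusted p of 0.05, as none of all genes did (0% called), and 3 of the 30 had an unadjusted p under 0.05, beside 4.21% of all genes. DESeq2 and limma-voom called none of the 30 either, beside 1.19% and 0.00622% of all genes. In simulated counts the edgeR test recovered 0% of 2-fold and 32% of 4-fold changes, so genes not called may still differ. The log2 fold change had a positive sign, higher in GSC2, for 10 of the 30 beside 46.3% of all genes, with a median of -0.26 beside -0.030. The 3 genes were Fzd3, with a log2 fold change of 0.68 (SE 0.27), Fzd6, with -0.56 (SE 0.22), and Wnt11, with -2.15 (SE 0.86); their edgeR adjusted p was 1.00 in each case. Without GSC1 replicate 3 the value for Wnt11 was -1.22 (SE 0.64). For Wif1 the log2 fold change was -4.68 (SE 2.10), which rests on GSC1 replicates 3 and 4. Without them it was 2.17, higher in GSC2. Of the tumours then left, GSC2 replicate 2 was at 2.35 CPM and the others at 0.184 to 0.451 CPM. With all 7 tumours limma-voom gave -1.88 (SE 3.01) for Wif1. Wnt7b had 0.15 (SE 0.47), which turned to -0.12 without GSC1 replicate 3 and to -0.09 without GSC1 replicate 4. Fzd1 had 0.50 (SE 0.32), with 0.31 to 0.75 when 1 tumour was left out, and Wnt5a had -0.17 (SE 0.20), with -0.26 to -0.097.

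**Figure D3:**
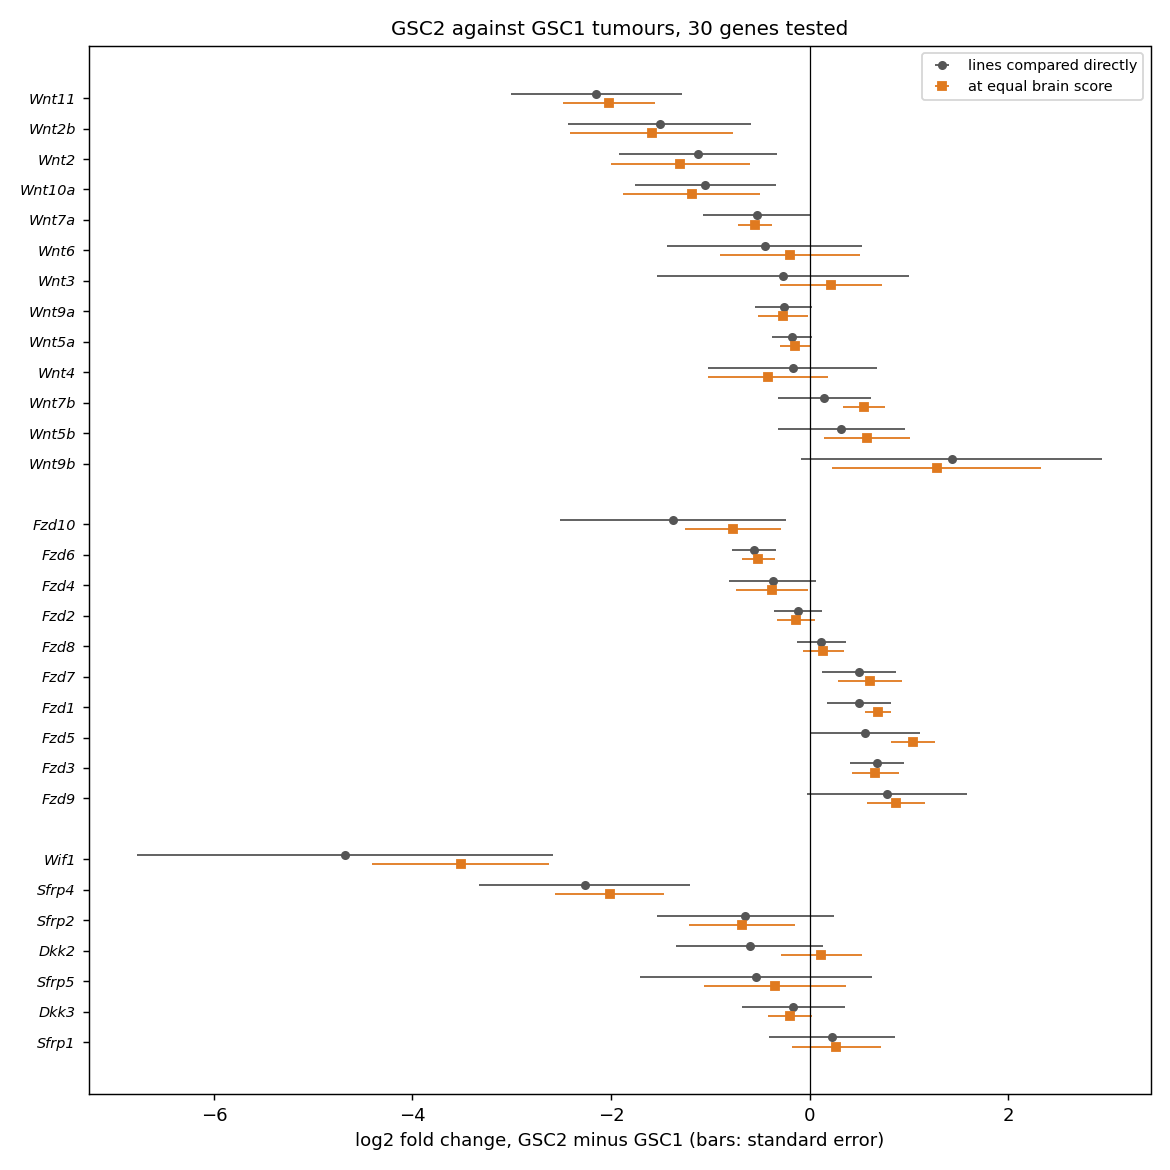
Log2 fold change of GSC2 over GSC1 for each tested gene, with bars of 1 standard error, from the comparison of the lines and from the comparison at equal brain score. Fzd1 and Fzd5 have a shorter bar at equal brain score, and the Wif1 bar is the longest in the comparison of the lines.

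At equal brain score, with the score as a covariate, none of the 30 genes passed an adjusted p of 0.05 in edgeR, beside 1.21% of all genes, and 10 had an unadjusted p under 0.05, beside 18.4%. The called share of all genes was 0.859% with GSC2 above and 0.355% with GSC1 above, and the sign was positive for 12 of the 30 beside 54.4%. Fzd1 was nearest, with a log2 fold change of 0.69 (SE 0.13, edgeR adjusted p = 0.0536), then Fzd5 with 1.04 (SE 0.22, edgeR adjusted p = 0.0642) and Wnt11 with -2.02 (SE 0.46, edgeR adjusted p = 0.0748). Without GSC2 replicate 3 both receptors passed, Fzd1 with an edgeR adjusted p of 0.0471 and Fzd5 with 0.0494, and without GSC1 replicate 3 these were 0.229 and 0.232. DESeq2 called 7 of the 30 beside 7.98% of all genes: Fzd1 and Fzd5 higher in GSC2, and Fzd6, Sfrp4, Wif1, Wnt11 and Wnt7a higher in GSC1. Fzd3 and Fzd6, the receptors whose values did not overlap, had log2 fold changes of 0.66 (SE 0.24) and -0.52 (SE 0.17).

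Along the brain score, 16 of the 30 genes changed in edgeR's test with the line as a covariate, beside 48.2% of all genes, a share near that background. Of these, 12 rose, beside 24.2% of all genes, and 4 fell, beside 24%. The rising genes were the ligands Wnt3, Wnt5b, Wnt7a, Wnt9b and Wnt11, the receptors Fzd9 and Fzd10, and the antagonists Dkk3, Sfrp2, Sfrp4, Sfrp5 and Wif1; the falling genes were Wnt7b, Fzd1, Fzd5 and Dkk2. By role, 5 of 13 tested ligands rose and 1 fell, 2 of 10 receptors rose and 2 fell, and 5 of 7 antagonists rose and 1 fell. The slope was positive for 22 of the 30, beside 50.2% of all genes, and its median was 0.42 in log2 per unit of score, beside 0.0018 over all genes. The score and the levels come from the same 7 tumours, and other marker lists moved with the score too. Among them, 12 of 12 mitosis markers fell, 8 of 10 astrocyte markers rose and 7 of 9 meningeal markers rose. The 3 tested hindbrain and spinal cord markers and all 6 ependymal markers rose, and 4 of 7 forebrain markers fell. The part of these lists in the slopes was not tested.

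Wnt7b and Wnt7a had slopes of opposite sign, Wnt7b falling by 0.46 (SE 0.08, edgeR adjusted p = 0.00359) and Wnt7a rising by 0.56 (SE 0.07, edgeR adjusted p = 0.00087) in log2 per unit of score. Fzd1 fell by 0.30 (SE 0.05, edgeR adjusted p = 0.00312) and Fzd5 fell by 0.55 (SE 0.09, edgeR adjusted p = 0.00198). The steepest rises were those of Wif1, 2.48 (SE 0.40, edgeR adjusted p = 0.00222), and Wnt3, 1.49 (SE 0.24, edgeR adjusted p = 0.00229), among the genes named by smallest p. Fzd10 rose by 1.20 (SE 0.20) and Fzd9 by 0.89 (SE 0.13). These 8 were the genes called, with the same sign, in all 7 fits that left out 1 tumour.

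The other 8 of the 16 were not called in every such fit. Dkk3 rose by 0.52 (SE 0.09, edgeR adjusted p = 0.00319), and without GSC1 replicate 2 its adjusted p was 0.0504. Dkk2 fell by 0.69 (SE 0.16, edgeR adjusted p = 0.0102), with an adjusted p of 0.0725 without GSC1 replicate 2 and 0.0801 without GSC1 replicate 3. Without GSC1 replicate 2, the tumour with the lowest score, 8 of the 30 genes were called, beside 25.3% of all genes. Without GSC1 replicates 3 and 4 edgeR called none of these genes and none of 16165 genes (5 of 31 tested members of the set had an unadjusted p under 0.05), and without these and GSC2 replicate 3 there were 4 genes, beside 7.1% of all genes.

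**Figure D4:**
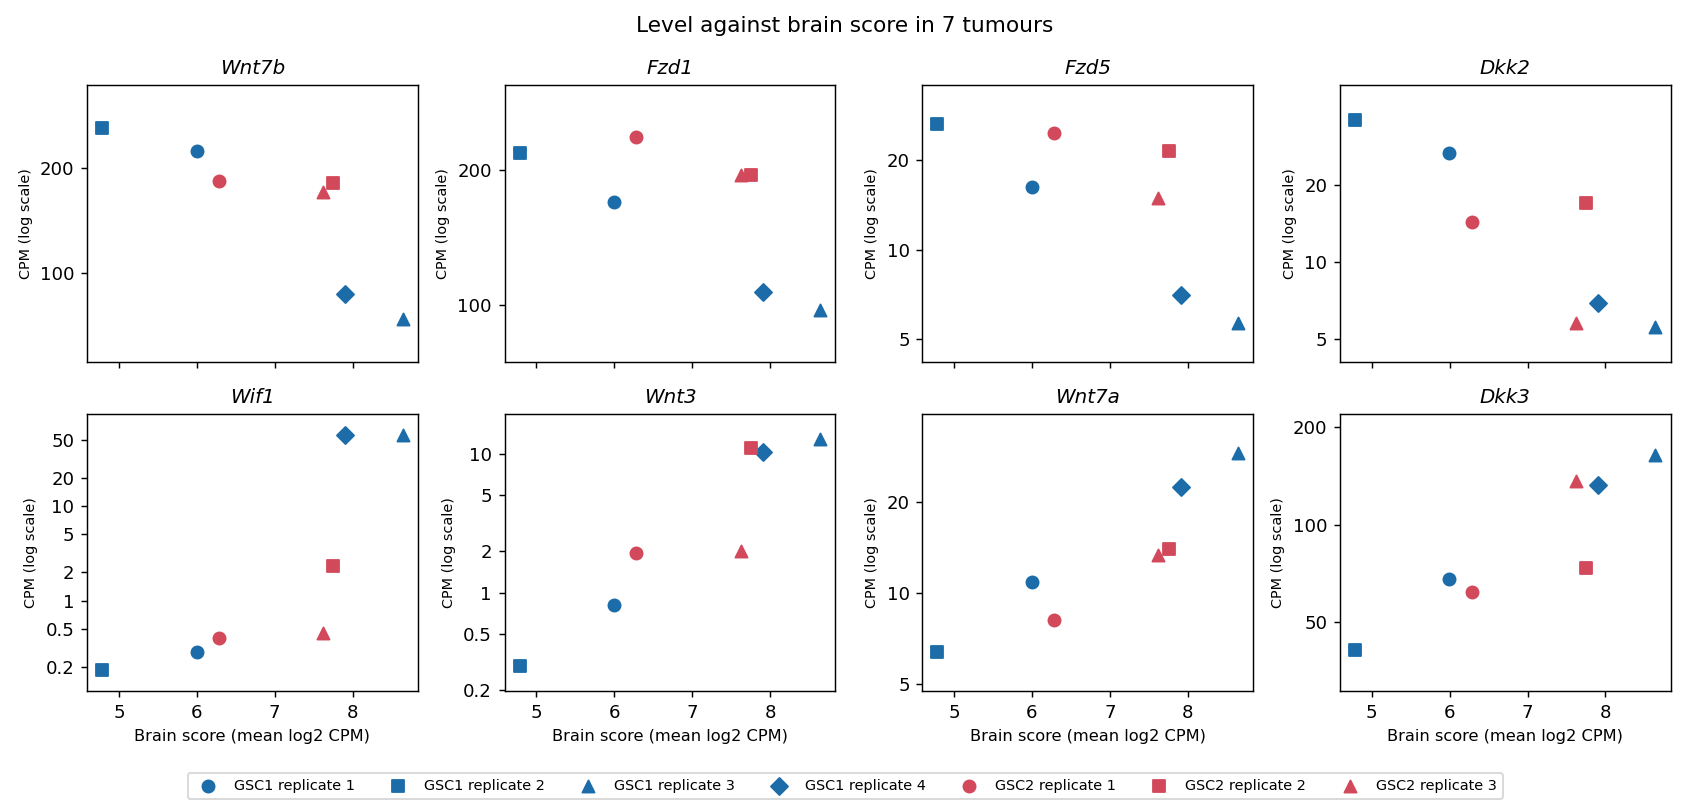
CPM on a log axis against the brain score, the mean log2 CPM of neuronal and oligodendrocyte markers, for 8 genes in the 7 tumours; colours give the line and shapes the replicate. The upper 4 genes are lower and the lower 4 higher at the score of 8.64 of GSC1 replicate 3 than at the 4.78 of GSC1 replicate 2.

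The rest of the pathway was followed through 81 further genes, of which 78 were tested. Between the lines, edgeR called none of the 78 and 7 had an unadjusted p under 0.05, beside 4.21% of all genes; DESeq2 called 2, Ccn4 and Wls, beside 1.19% of all genes. Ccn4, a secreted matricellular target of beta-catenin, was at 29.6, 43.9, 33.4 and 14.7 CPM in GSC1 and at 4.58, 1.61 and 5.21 CPM in GSC2, with no overlap. Its log2 fold change was -3.00 (SE 0.56, edgeR adjusted p = 0.362). Wls, which carries Wnts to the cell surface, was at 156, 186, 209.9 and 214 CPM in GSC1 and at 127, 117 and 123 CPM in GSC2, again without overlap, a log2 fold change of -0.65 (SE 0.21). Axin2, a feedback inhibitor and common readout of the beta-catenin branch, was at 9.97, 4.74, 8.51 and 13.05 CPM in GSC1 and at 20.8, 21.01 and 13.08 CPM in GSC2. The closest Axin2 tumours, GSC1 replicate 4 and GSC2 replicate 3, were nearly level, and the log2 fold change was 1.01 (SE 0.38, edgeR adjusted p = 1.00). Thus Ccn4 and Axin2, both from the list of beta-catenin targets and feedback genes, stood on opposite sides. Of the 18 genes of that list, 12 had a positive log2 fold change, beside 46.3% of all genes.

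At equal brain score, edgeR called 2 of the 78, beside 1.21% of all genes: Ccn4, with a log2 fold change of -2.92 (SE 0.47, edgeR adjusted p = 0.0372), and Dchs1, with 1.27 (SE 0.21, edgeR adjusted p = 0.0378). Dchs1, a giant cadherin of the planar cell polarity system, was at 42.5, 82.0, 41.9 and 32.4 CPM in GSC1 and at 124, 101 and 99.6 CPM in GSC2. All GSC2 tumours were higher, and GSC1 replicate 2 was the closest. Neither call held throughout when 1 tumour was left out: the edgeR adjusted p reached 0.158 for Ccn4 and 0.159 for Dchs1, both without GSC2 replicate 1, and it was above 0.05 in 5 of 7 fits for Ccn4, those without GSC1 replicates 1, 2 or 3 or GSC2 replicates 1 or 2, and in 6 of 7 for Dchs1, all but that without GSC2 replicate 3.

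Along the score, 20 of the 78 rose and 23 fell, shares near those of all tested genes, 24.2% and 24%. Among the receptor partners 1 of 9 tested genes rose and 5 fell, among the cytoplasmic signalling genes 1 of 14 rose and 6 fell, and among the nuclear effectors 2 of 11 rose and 5 fell. Of the 18 feedback and target genes 8 rose and 4 fell, and of the 13 planar cell polarity genes 4 rose and 2 fell. Tcf7, Lef1, Lgr5, Rnf43, Znrf3 and Notum are in the feedback and target list and also in another list. The lists thus overlap, and these genes enter the counts of both. In the R-spondin and receptor turnover list 3 of 8 tested genes rose and 2 fell, among the other secreted antagonists 1 of 5 rose and 1 fell, and among the secretion genes 2 of 6 rose and none fell. The genes of smallest p that rose were Tnfrsf19, a target receptor, by 0.74 (SE 0.07), Dact3, an inhibitor of Dishevelled, by 0.63 (SE 0.07), Daam2, a formin, by 0.64 (SE 0.10), and Gpc3, a glypican, by 1.30 (SE 0.22). The genes of smallest p that fell were Myc, by 0.57 (SE 0.07), Tcf7, a nuclear effector, by 0.65 (SE 0.08), Adgra2, the vascular co-receptor for Wnt7 ligands, by 0.69 (SE 0.10), and Ptk7, a planar cell polarity receptor, by 0.48 (SE 0.07).

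Lrp6, the co-receptor, was at 59.0, 108, 30.2 and 40.7 CPM in GSC1 and at 92.3, 83.0 and 40.6 CPM in GSC2. Its level fell by 0.43 (SE 0.10, edgeR adjusted p = 0.00844) in log2 per unit of score, and its adjusted p was 0.127 without GSC1 replicate 2 and 0.0587 without GSC1 replicate 3. Porcn, the enzyme that adds the lipid to Wnts, was at 17.5, 7.87, 35.0 and 38.0 CPM in GSC1 and at 8.80, 16.7 and 25.01 CPM in GSC2. It rose by 0.61 (SE 0.11, edgeR adjusted p = 0.00323), with an adjusted p of 0.0548 without GSC1 replicate 2. Lef1, a nuclear effector and target, was at 19.5, 19.1, 5.33 and 9.24 CPM in GSC1 and at 10.0, 29.2 and 4.71 CPM in GSC2, and the lines overlapped.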

How the data were processed

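RNA libraries (NEBNext Ultra, from RNA extracted with the RNeasy Plus Mini kit, per the labels' protocols) of 4 GSC1 and 3 GSC2 tumours were used. The authors deposited raw read counts per Ensembl gene, 1 table per tumour. The submitters' processing notes name TopHat2 2.0.11 and HTSeq, and the builds mm9 and dm3 without their roles. The counting mode and any use of strand were not given in the sources used here; reads of overlapping or antisense genes cannot be told apart. Reads in no gene (6.19 to 14.2% of the reads listed), ambiguous reads and reads that did not align uniquely were left out of library sizes.

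Symbols came from gene tables; 32897 of 37620 identifiers matched. Transcript lengths are from GENCODE M21. Counts were tested with edgeR 4.0.16 (TMM factors, filterByExpr, robust quasi-likelihood fit) in R 4.3.3 with Benjamini-Hochberg adjustment over all 16068 genes, threshold 0.05. There were 3 tests: GSC2 against GSC1, the same with the brain score as covariate, and the slope on the brain score with the line as covariate. Log2 CPM used a prior count of 2. The standard error is the log2 fold change over the square root of its F. DESeq2 1.42.0, limma-voom (limma 3.58.1), other scalings and filters, an astrocyte score and omission of tumours were alternatives. On simulated counts the line test recovered 0% of 2-fold, 32% of 4-fold and 80% of 8-fold changes. The slope test recovered 6%, 62% and 98% of such changes over the range of the score. The line test at equal score was not simulated. A gene not called is thus not shown to be equal between the lines.

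Genes with values in every tumour were the 4 of highest mean CPM per kilobase in each role, those with an unadjusted p under 0.05 or no overlap between the lines, and up to 6 per direction called in the other tests; of the other pathway genes, 5 preset ones and up to 4 per direction and test. The genes and lists were chosen with earlier results of these data known. Any 2 libraries differed beyond sampling noise.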

Additional observations from a re-analysis of the deposited data

Results flagged for a closer look

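Of the 30 genes tested for an outlying value among the 4 GSC1 tumours, 1 was picked out. Wnt2b, a ligand of the canonical branch, was at 0.698 CPM in GSC1 replicate 2, while the nearest of the other 3 was at 2.12 CPM. Chance picks about 1 in 20 such groups.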

How the results depend on the processing

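Between the lines, no gene of the set was called under any alternative run. The log2 fold change between the lines was recomputed for 7 of these genes (Fzd1, Fzd3, Fzd6, Wnt5a, Wnt7b, Wnt11 and Wif1), and its sign turned for Wnt7b and Wif1. The log2 fold change of Wnt7b was -0.12 without GSC1 replicate 3, -0.09 without GSC1 replicate 4 and -0.46 without both. Without both and GSC2 replicate 3 it was -0.41. In the last 2 cases that of Wif1 was 2.17 and 2.53, with only GSC2 replicate 2 above 0.451 CPM. Leaving out 1 tumour took Wnt7b from -0.12 to 0.48. The cause was not tested. At equal brain score the count of genes called was 7 with DESeq2, beside 7.98% of all genes, and 1 with a mean of at least 1 CPM, beside 1.53%. The count was 1 without GSC1 replicates 3 and 4 and GSC2 replicate 3, beside 1.71%. When 1 tumour was left out, the count was 0 to 2, beside 0.00605 to 3.42% of all genes. Along the score it was 8 to 18 when 1 tumour was left out, with 25.3 to 50.6% of all genes called in those fits, 4 without the 3 tumours and 0 without GSC1 replicates 3 and 4, an alternative chosen after seeing the data. Fits with 4 or 5 tumours have few residual degrees of freedom. Another scaling moved the median log2 fold change of all genes by under 0.04.

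With the replicate number as a block, 0 genes of the set were called and 1 had an unadjusted p under 0.05, against 3 without it; the log2 fold change of Wif1 was -0.38 (SE 2.72) with the block, in which GSC1 replicate 4, alone in its number, adds nothing to the comparison. Deviations of same-numbered tumours had correlations of 0.58, -0.31 and 0.41, and 3 of 6 tumours correlated best with their own number. So few values cannot decide whether same-numbered tumours were paired or shared a batch, and the labels do not state a pairing. Genes under 1 CPM rest on few reads.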
